A study of Mus musculus with 10 samples.

Results

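The major urinary proteins are small secreted carrier proteins of the lipocalin family. Hepatocytes make them, the blood carries them to the kidney, and they leave the body in urine, where they bind and release volatile pheromones. Their genes lie side by side on mouse chromosome 4, many of them as near-identical copies, and in the liver they are expressed more strongly in males, under the pulsatile secretion of growth hormone that acts through STAT5b. *Mup20* encodes darcin, a pheromone by which females recognise male scent.

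The expression of 10 of these genes was examined in liver RNA, namely *Mup1*, *Mup2*, *Mup3*, *Mup7*, *Mup10*, *Mup11*, *Mup12*, *Mup17*, *Mup20* and *Mup21*. They were chosen by name, as 10 of the 22 *Mup* genes among 16647 genes with counts. Livers of 5 control (vehicle-treated) mice were compared with livers of 5 mice that received MI-883, a compound made to activate CAR and to block PXR, at 5 mg/kg by oral gavage 3 times a week for 4 weeks. Vehicle was DMSO, PEG300 and corn oil. All 10 animals were male PXR-CAR-CYP3A4/3A7 humanized mice of one commercial model, 10 to 15 weeks old at the start, and had been on a high-fat diet (HFD) for 8 weeks before treatment and stayed on it. The human genes replace the mouse ones in every group, so that no wild-type mouse receptor served as a reference. Each library was made from another animal.

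Between 24014461 and 36221514 reads per control liver and between 23513665 and 28349963 per MI-883-treated liver were counted on genes. Levels are given as CPM, counts relative to the library size after scaling by the TMM method, with the S.D. over 5 livers. The test covered 13219 genes whose counts over the 10 livers added up to 60 or more, and all 10 *Mup* genes passed this minimum. All 12 hepatocyte markers examined, albumin (*Alb*) and *Ttr* among them, were measured in every liver, with summed levels of 104887 to 125596 CPM without and 90037 to 109044 CPM with MI-883. In bulk RNA, fewer cells of a type and less RNA per cell cannot be told apart.

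The 10 genes occupy chr4:60066469-62150841 in the mouse assembly GRCm38 (mm10), and the wider group of all 22 *Mup* genes starts at position 59956804. *Mup7* is at chr4:60066469-60070475, *Mup17* at chr4:61591929-61595865, *Mup20* at chr4:62011337-62054143, *Mup3* at chr4:62083476-62087317 and *Mup21* at chr4:62147832-62150841. The coding sequences show how far reads could tell the genes apart. The stretch of 90 coding bases shown here crosses from exon 2 to exon 3, as in the GENCODE transcripts of the same assembly. It was chosen as the one with the most positions that vary among the 10 genes, 31 of 90, so differences in it are high by choice. It holds 6 distinct sequences and does not part all 10 genes. It runs 5′ to 3′ on the coding strand, and capitals mark bases that differ from the most frequent base among the 10 genes.
Mup1, Mup2, Mup11 and Mup12: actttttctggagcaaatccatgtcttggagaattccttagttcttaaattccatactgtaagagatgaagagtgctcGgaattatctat
Mup7 and Mup17: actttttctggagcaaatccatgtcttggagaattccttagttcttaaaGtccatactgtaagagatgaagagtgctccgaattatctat
Mup10: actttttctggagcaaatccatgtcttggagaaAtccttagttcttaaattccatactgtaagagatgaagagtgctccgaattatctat
Mup20: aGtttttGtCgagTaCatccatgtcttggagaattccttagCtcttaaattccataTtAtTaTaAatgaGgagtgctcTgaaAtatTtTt
Mup3: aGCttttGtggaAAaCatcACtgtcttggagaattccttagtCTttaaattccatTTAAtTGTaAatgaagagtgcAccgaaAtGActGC
Mup21: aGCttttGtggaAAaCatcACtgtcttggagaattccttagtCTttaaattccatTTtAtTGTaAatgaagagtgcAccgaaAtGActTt

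In this stretch *Mup20* differed from the most frequent bases at 16 positions, *Mup21* at 22 and *Mup3* at 24, while each of the other 7 genes differed at 1. The window of *Mup7* spans chr4:60068945-60069792 and that of *Mup20* chr4:62052680-62053539 on the minus strand, the intron between the exons included. Over the whole coding sequence, *Mup1*, *Mup2*, *Mup7*, *Mup10*, *Mup11*, *Mup12* and *Mup17* were between 98.7% and 99.8% identical to one another. *Mup3* and *Mup21* were 96.3% identical to each other and 84.3% and 84.5% to *Mup1*, and *Mup20* was 91.0% identical to *Mup1*. All 3 kinds of gene encode proteins of 180 to 184 residues.

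The deposited counts carry these identities with them. Of the 100-base stretches of the *Mup2* transcript, 97.3% also occur in transcripts of other genes. The share was 87.2% for *Mup1*, 87.1% for *Mup7*, 85.4% for *Mup10*, 83.5% for *Mup11*, 77.5% for *Mup12* and 59.4% for *Mup17*. It was 4.5% for *Mup21* and 2.94% for *Mup3*, which share these stretches with each other. For *Mup20* it was 38.8%, all of it shared with *Mup-ps19* and none with another *Mup* gene. The share depends on the length of the stretch. With 200 and 300 bases it was 8.79% and 0% for *Mup17*, 62.2% and 42.4% for *Mup7*, and 83.2% and 80.3% for *Mup2*. How the authors counted reads that fit several genes is not given in the sources used here. The values of the 7 near-identical genes are therefore uncertain one by one, though *Mup17* shared the least of them at each length. By the 100-base stretches, the values of *Mup3*, *Mup21* and *Mup20* are the ones that reads of the other *Mup* genes touch least.

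Counts on *Mup* genes made up between 1.67% and 3.31% of all counts in control livers (mean 2.40% ± 0.72, n = 5) and between 2.07% and 3.23% in MI-883-treated livers (2.69% ± 0.54, n = 5). In control replicates 1 to 5 the percentages were 1.67, 1.98, 3.31, 3.02 and 2.03, and in MI-883 replicates 1 to 5 they were 2.18, 3.11, 2.07, 3.23 and 2.86. The groups overlapped over most of their range. *Mup3* and *Mup20* together took 61.9% ± 10.7 of the *Mup* counts in control livers and 57.6% ± 9.9 in MI-883-treated livers, and by mean CPM they ranked 9 and 8 among the 13219 tested genes.

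**Figure D1:**
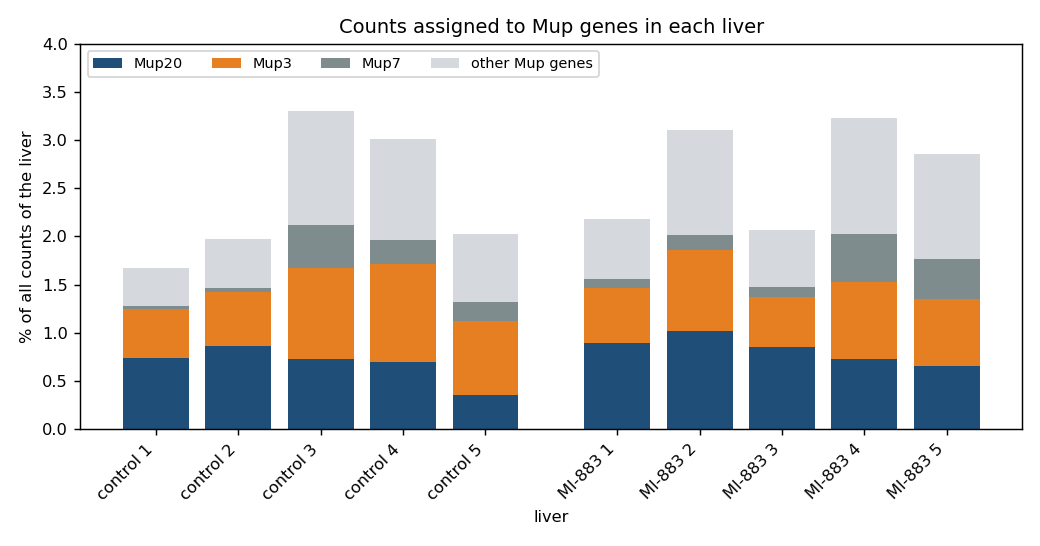
Percent of all counts of each liver (vertical axis) that were assigned to *Mup20*, *Mup3*, *Mup7* and the other *Mup* genes, stacked, for 5 control and 5 MI-883-treated livers. The bar heights range from 1.67% to 3.31% in control and from 2.07% to 3.23% in MI-883-treated livers, and the *Mup7* part makes up from 1.75% to 15.4% of a bar.

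*Mup20*, the darcin gene, was measured at 6997, 8511, 7519, 7303 and 3751 CPM in control replicates 1 to 5. In MI-883 replicates 1 to 5 it was at 8683, 10583, 7693, 7581 and 6328 CPM. Control replicate 5 was the lowest of all livers and MI-883 replicate 2 the highest, and the other 8 livers lay between. Control livers averaged 6816 ± 1805 CPM and treated livers 8173 ± 1585 CPM, a 1.2-fold difference with a 95% interval from 0.892-fold to 1.61-fold (log2 fold change 0.26, SE 0.20, edgeR adjusted P = 0.552).

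*Mup3*, whose coding sequence was, with that of *Mup21*, the farthest from the other copies, had 4926, 5553, 9724, 10720 and 8077 CPM in control replicates 1 to 5. The MI-883 replicates 1 to 5 had 5540, 8750, 4792, 8415 and 6696 CPM. Control replicates 3 and 4 lay above every treated liver and the other control livers within the treated range. Means were 7800 ± 2530 and 6839 ± 1735 CPM, a 0.877-fold difference (95% interval 0.622 to 1.24, log2 fold change -0.19, SE 0.23, edgeR adjusted P = 0.721).

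*Mup7*, one of the near-identical copies, was the most variable of the abundant genes. Its level in control replicates 1 to 5 was 278, 448, 4542, 2593 and 2018 CPM. In MI-883 replicates 1 to 5 it was 839, 1597, 921, 5215 and 4067 CPM. The highest control liver exceeded the lowest 16.3-fold, and the highest treated liver exceeded the lowest 6.22-fold. The means of 1976 ± 1745 and 2528 ± 1993 CPM differed by less than this spread (log2 fold change 0.36, SE 0.69, edgeR adjusted P = 0.836), and the 95% interval reached from 0.454-fold to 3.61-fold.

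*Mup17* lay at 889, 1201, 3930, 3537 and 2444 CPM in control replicates 1 to 5. MI-883 replicates 1 to 5 were at 1577, 3853, 1258, 4479 and 2481 CPM. Again control replicates 1 and 2 and MI-883 replicates 1 and 3 were low. The log2 fold change was 0.19 (SE 0.42, edgeR adjusted P = 0.863).

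The other 6 genes followed at lower levels. *Mup11* ranged from 371 to 1314 CPM in control and from 274 to 1575 CPM in treated livers. *Mup12* ranged from 135 to 669 and from 226 to 594 CPM. *Mup21* ranged from 97.4 to 316 and from 133 to 245 CPM. All of these ranges overlapped. *Mup1* ranged from 66.4 to 241 CPM in control and from 110 to 235 CPM in treated livers. *Mup10* ranged from 19.5 to 115 and from 26.9 to 71.6 CPM, and *Mup2* from 5.84 to 16.5 and from 6.60 to 15.04 CPM. The highest control value of *Mup10*, in replicate 4, stood apart from the next at 32.0 CPM.

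**Figure D2:**
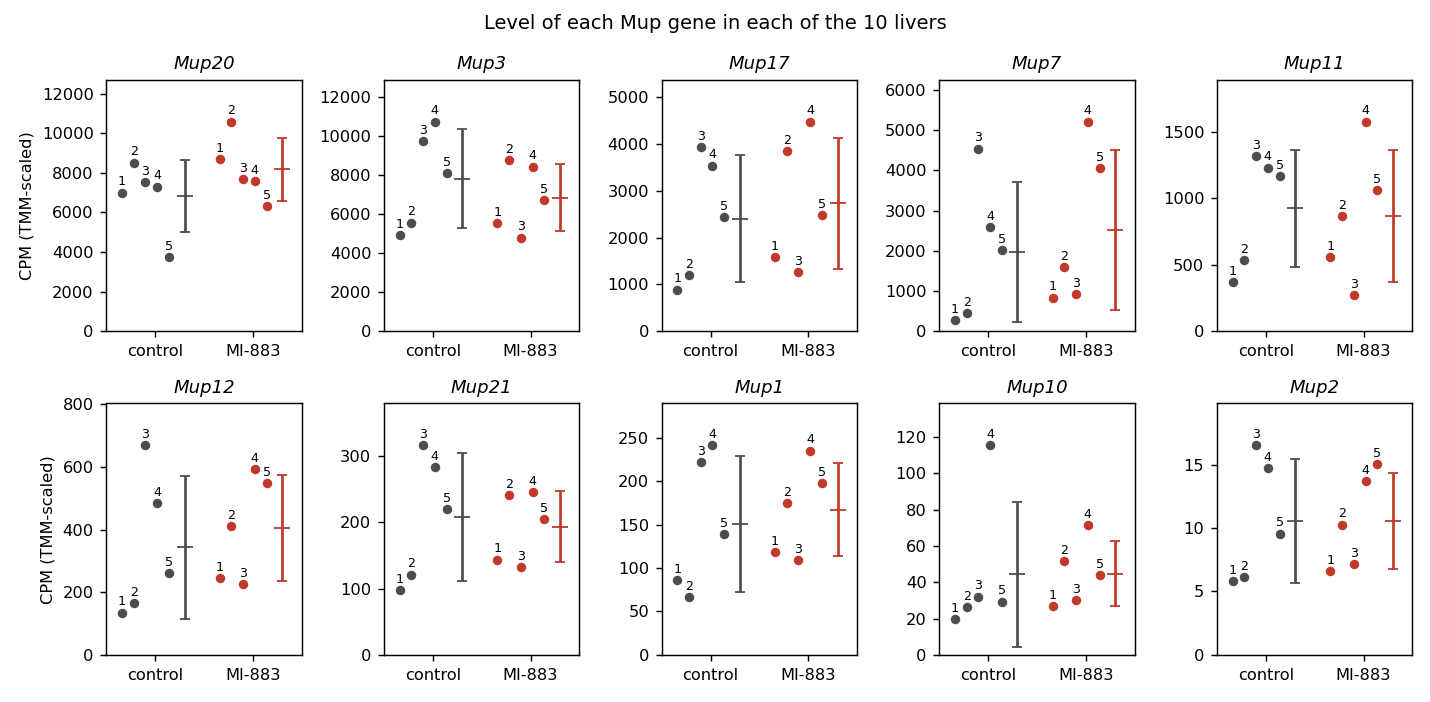
TMM-scaled CPM (vertical axes, each from 0) of the 10 *Mup* genes in each liver, with the replicate number beside each point, and the mean ± S.D. of 5 livers as a bar to the right of each group. In 9 panels control replicates 1 and 2 and MI-883 replicates 1 and 3 are the lowest of their group, and in the *Mup20* panel they are not.

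Per kilobase of transcript, which allows genes to be compared, *Mup3* (7927 ± 2571 CPM per kb) and *Mup20* (7345 ± 1945) were the highest in control livers, and *Mup3* exceeded *Mup20* in 3 of 5 livers. In MI-883-treated livers *Mup20* (8808 ± 1708) exceeded *Mup3* (6950 ± 1763) in 4 of 5 livers. In neither group did the ranges of these 2 genes part. *Mup17* and *Mup7* followed at 2589 ± 1463 and 2132 ± 1883 CPM per kb in control livers, with overlapping ranges, then *Mup11* (992 ± 469), *Mup12* (371 ± 246), *Mup21* (306 ± 142), *Mup1* (163 ± 84.8), *Mup10* (48.0 ± 43.0) and *Mup2* (11.4 ± 5.27). Of the 9 neighbouring pairs in this order, the ranges of *Mup10* and *Mup2* alone were apart in control livers. In treated livers *Mup3* and *Mup17*, *Mup1* and *Mup10*, and *Mup10* and *Mup2* were apart. For the near-identical copies this order also depends on how shared reads were assigned.

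None of the 10 genes differed between MI-883-treated and control livers by more than the spread between livers. By edgeR's quasi-likelihood test, 0 of 10 were called at an adjusted P of 0.05, against 1.03% of all 13219 genes. None had an unadjusted P under 0.05, against 15.6% of all genes, and none was called by DESeq2, which called 3.50% of all genes. The groups overlapped for all 10, whereas 3.98% of all tested genes did not overlap. Estimates were above 0 for 7 genes and below 0 for 3, with a median log2 fold change of 0.08 beside a median of 0.00451 over all tested genes. This median changed sign with single livers: it was -0.089 without control replicate 1, -0.085 without control replicate 2 and -0.099 without MI-883 replicate 4, and it was highest, at 0.33, without control replicate 4. The intervals were wide: for *Mup11* the 95% interval ran from 0.497-fold to 1.77-fold, and for *Mup1* from 0.677-fold to 1.81-fold. Changes within these bounds were not excluded with 5 livers in each group.

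**Figure D3:**
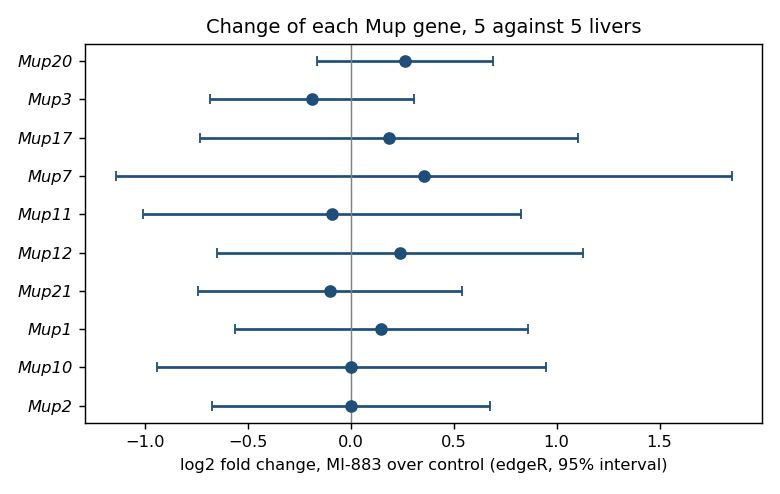
Log2 fold change of MI-883-treated over control livers (horizontal axis) with the 95% interval from edgeR for each of the 10 *Mup* genes, ordered by level. Every interval crosses 0, and the widest is that of *Mup7*, from -1.14 to 1.85.

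Of the 12 *Mup* genes not chosen, 11 were tested, and edgeR and DESeq2 called none of these. *Mup14* had an unadjusted P under 0.05 (1001 ± 363 to 1471 ± 419 CPM, log2 fold change 0.56, SE 0.24, edgeR adjusted P = 0.295). *Mup4* had between 0 and 3 counts per liver, at or below a floor of 3 counts. When the counts of all *Mup* genes were summed, control livers averaged 24516 ± 7894 CPM and treated livers 26759 ± 6668 CPM, with ranges of 15939 to 34037 and 18809 to 33867 CPM.

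Within the *Mup* counts the proportions were compared as well. *Mup3* took 30.9%, 28.3%, 28.6%, 33.9% and 37.8% of the *Mup* counts in control replicates 1 to 5. In MI-883 replicates 1 to 5 it took 26.2%, 27.0%, 25.5%, 24.9% and 24.2%. Every treated liver was below every control liver, which held for 1 of the 10 genes, while the shares of the other 9 overlapped. Of the 11 other tested *Mup* genes, *Mup14* did not overlap either, with 3.38% to 4.42% in control and 4.47% to 6.29% in treated livers. This measure exists for *Mup* genes alone, so these counts have no rate over all genes beside them. These shares were computed after the levels had been seen and were not tested, and a share within a family moves when any large member of it moves.

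The *Mup* genes spread widely between livers for genes of their level. The coefficient of variation of the 10 genes lay between 26.5% and 89.6% in control livers (median 49.7%) and between 19.4% and 78.9% in MI-883-treated livers (median 38.1%). Over all tested genes the medians were 11.6% and 12.8%. *Mup7* (88.3% and 78.9%) and *Mup17* (56.5% and 51.4%) varied more in both groups than each of the 54 and 51 genes outside the *Mup* family whose mean level was within 1.5 times theirs. *Mup11* (47.3% and 57.3%) varied more than each of 126 such genes, *Mup* genes again left out. *Mup20* had the smallest spread (26.5% and 19.4%), followed by *Mup3* (32.4% and 25.4%), but both still varied more than each of the 11 genes of like level outside the family, which had a median of 8.77% in control livers. *Mup2*, the lowest of the 10, exceeded 98.6% of 2229 genes of like level outside the family in control livers and 97.4% in treated livers. These places are descriptions without a test.

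**Figure D4:**
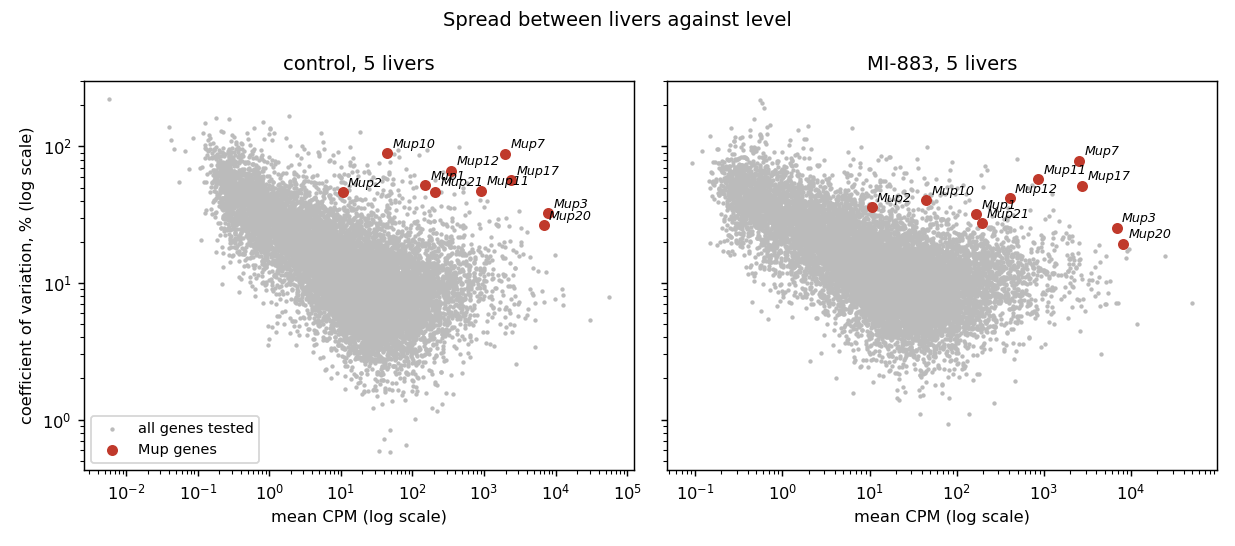
Coefficient of variation between 5 livers (vertical, log scale) against mean CPM (horizontal, log scale) in control and MI-883-treated livers, with all tested genes in grey and the 10 *Mup* genes in red. The *Mup* genes lie along the upper edge, from 26.5% to 89.6% in control livers and from 19.4% to 78.9% in treated livers.

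The livers that were low in one of the 10 genes were low in nearly all of them. Control replicates 1 and 2 were the lowest 2 control livers for 9 of the 10 genes, and MI-883 replicates 1 and 3 were the lowest 2 treated livers for the same 9. The exception was *Mup20*, whose lowest livers were control replicates 1 and 5 and MI-883 replicates 4 and 5. In a principal component analysis of the 500 most variable genes, *Mup* genes not left out, the livers low in the other 9 genes also stood lowest. On component 1, control replicates 1 and 2 lay at -6.52 and -0.38 and MI-883 replicates 1 and 3 at -16.0 and -21.4, the lowest 2 of each group. Whether the *Mup* pattern is part of a wider difference between livers was not tested.

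To measure how far the *Mup* genes moved together, the log2 CPM of each gene was centred within its group and correlated over the 10 livers with the sum of all other *Mup* genes. P values come from an exact permutation test, two-sided, over all 14400 orders of livers within groups, and were adjusted by the Benjamini-Hochberg method over these 10 correlations. *Mup17* had r = 0.95 and rho = 0.96 (exact permutation P = 0.000972 and 0.000208, adjusted P = 0.00486 and 0.00139). *Mup21*, which shares stretches with *Mup3* alone, had r = 0.94 and rho = 0.95 (exact permutation P = 0.000417 for both, adjusted P = 0.00417 and 0.00139). *Mup3* had r = 0.90 and rho = 0.84 (exact permutation P = 0.00465 and 0.00875, adjusted P = 0.00794 and 0.0109). Reads shared with genes of the sum can enter r, mainly for the near-identical copies. These copies share between 59.4% (*Mup17*) and 97.3% (*Mup2*) of their 100-base stretches with other genes. For them the P values cannot tell joint change from shared reads. In 9 of the 10 genes r was between 0.76 and 0.95, and each had an adjusted P under 0.05 for both r and rho.

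The lowest of these were *Mup10* (r = 0.76, exact permutation P = 0.0107, adjusted P = 0.0134) and *Mup7* (r = 0.78, exact permutation P = 0.0274, adjusted P = 0.0304), with rho of 0.87 and 0.82. After the 2 livers farthest from the median of the summed level had been left out, r was between 0.82 and 0.92 for these 9 genes.

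*Mup20* did not follow them. It had r = -0.10 and rho = 0.19 with the sum of the other *Mup* genes (exact permutation P = 0.862 and 0.641, adjusted P = 0.862 and 0.641), and r = 0.27 without the 2 farthest livers. Its r with each of the other 9 genes lay between -0.32 and 0.08, negative in 8 pairs. Of the *Mup* genes not chosen, *Mup5* did not follow the same 9 genes either, with r between 0.04 (*Mup17*) and 0.27 (*Mup1*). *Mup5* was low, at a mean of 8.13 CPM in control livers. *Mup6* was low too, at 14.6 CPM in control livers, but had r from 0.67 (*Mup11*) to 0.92 (*Mup21*) with the same 9 genes. *Mup19* had r from 0.39 (*Mup10*) to 0.68 (*Mup21*) and *Mup22* from 0.42 (*Mup10*) to 0.66 (*Mup7*) with these 9. Others, such as *Mup13*, followed them more closely, with r from 0.72 (*Mup10*) to 0.97 (*Mup2*). The difference between the r of *Mup20* and those of the other genes was not itself tested. *Mup20* had between 85506 and 272392 counts per liver.

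Among the 45 pairs of the 10 genes the median r was 0.89. The 21 pairs of near-identical copies had r between 0.64 and 0.98. Among pairs without *Mup20*, 14 share no 100-base stretch, and their r was between 0.72 and 0.99, with a median of 0.91. Each of these 14 pairs sets *Mup3* or *Mup21* against a near-identical copy, so the pairs are not independent. *Mup3* and *Mup21* had r = 0.97 with each other. *Mup3* and *Mup17*, which share none and are 84.9% identical in coding sequence, had the highest r of all pairs, 0.99.

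**Figure D5:**
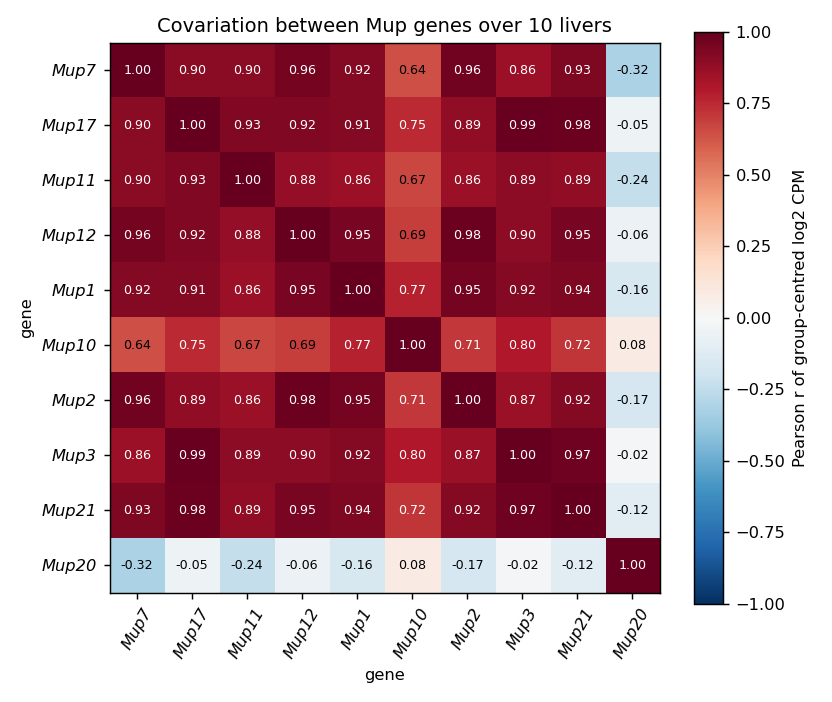
Pearson r of group-centred log2 CPM over 10 livers for each pair of the 10 *Mup* genes, with the value printed in each cell and the colour from blue (-1) to red (1). All cells off the diagonal and outside the *Mup20* row and column are between 0.64 and 0.99, and those of *Mup20* are between -0.32 and 0.08.

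Other cell types were compared with this pattern through sums of their markers. The level of *Mup3* had a positive r with the sum of 12 hepatocyte markers (r = 0.75, rho = 0.75, exact permutation P = 0.0281 and 0.0265) and a negative r with the sums of 6 cholangiocyte markers (r = -0.89, rho = -0.65, exact permutation P = 0.00458 and 0.0662) and 8 stellate cell markers (r = -0.79, rho = -0.66, exact permutation P = 0.019 and 0.0594). Over the 14 such relations computed for *Mup3* and *Mup20*, adjusted P values of r were 0.131, 0.0642 and 0.131 for these 3, and none was under 0.05. Without the 2 livers farthest from the median of the marker sum, r was 0.78, -0.85 and -0.84. The summed cholangiocyte markers ranged from 25.1 to 118 CPM in control and from 35.1 to 191 CPM in treated livers, and the summed stellate markers from 244 to 402 and from 290 to 481 CPM, while 1 cholangiocyte marker, *Cftr*, was below the count minimum. Most of the cholangiocyte sum came from *Spp1* (49.4 ± 37.7 CPM in control and 87.8 ± 67.3 CPM in treated livers). The next highest of these markers, *Sox9*, was at 3.01 ± 0.75 and 4.36 ± 0.66 CPM. The r with this sum is therefore largely one with *Spp1*.

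For *Mup20* the relation to hepatocyte markers was r = -0.23 and rho = -0.05 (exact permutation P = 0.573 and 0.897, adjusted P = 0.596 and 0.897), with r = 0.49 without the 2 farthest livers. Total counts gave r = -0.32 with *Mup3* and r = 0.39 with *Mup20* (exact permutation P = 0.426 and 0.459, adjusted P = 0.536 for both). Between the groups, 11 of 12 hepatocyte markers had lower means in treated livers. Of the 12, 5 had an unadjusted P under 0.05 by edgeR, beside 15.6% of all tested genes, and none was called by edgeR or DESeq2. For Kupffer cell, endothelial and lymphoid or myeloid markers, r with *Mup3* was -0.46, 0.51 and -0.55 and rho was -0.36, 0.33 and -0.50 (exact permutation P of r = 0.180, 0.169 and 0.129, adjusted P = 0.360 for each). With *Mup20* the lymphoid or myeloid markers had r = 0.75 and rho = 0.52 (exact permutation P = 0.0424 and 0.148, adjusted P = 0.149 and 0.461), and r = 0.12 without the 2 farthest livers, so that this value rested on those livers. The part of cell composition in the *Mup* levels was not tested.

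The genes whose pattern over the 10 livers was most like that of the summed *Mup* genes were, among 11592 other genes with a mean of at least 1 CPM, *Tle5* (r = 0.96), *Dio1* (0.95), *Serpina1c* (0.94), *Rtp3*, *Zfp638*, *Serpina1b* (each 0.93), *Mtif3*, *Arhgap26* (each 0.93), *Ces3a* and *Slco1a1* (each 0.92). *Dio1* encodes the deiodinase that activates thyroid hormone in liver, *Serpina1b* and *Serpina1c* encode alpha-1-antitrypsins, and *Slco1a1* encodes a male-biased organic anion transporter. None of the 10 was called between the groups. The genes most like *Mup20*, sought after its pattern had been seen, were *Cd59a* (r = 0.95), a complement inhibitor, *Insig2* (0.93), a regulator of sterol synthesis, and *Erc2* (0.93), and their r with the summed *Mup* genes was 0.12, -0.05 and 0.27.

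Lists of related genes were set beside these patterns. The 18 ranked genes of the male-biased liver list had a median r of 0.71 with the summed *Mup* genes, and 14 of them had r above 0.5, compared with a median of 0.06 and 14.5% of all ranked genes. Other lists of genes expressed in hepatocytes were also above all genes: the 12 hepatocyte markers had a median r of 0.51, with 7 above 0.5, the 14 ranked liver regulators a median of 0.46, with 6 above 0.5, and the 10 other lipocalins a median of 0.30, with 5 above 0.5. The difference between these lists was not tested. *Elovl3*, a fatty acid elongase, had r = 0.88, *Hsd3b5*, a male-specific steroid dehydrogenase, had r = 0.88 too, and *Cyp7b1*, an oxysterol hydroxylase, had r = 0.79. The 10 ranked female-biased genes had a median r of -0.41, and none exceeded 0.5. Most marker lists of other liver cell types were low as well, with none above 0.5. Their medians were -0.43 for Kupffer cell, -0.60 for stellate cell, -0.85 for 3 ranked cholangiocyte and -0.29 for 3 ranked lymphoid or myeloid markers. Endothelial markers went the other way, with a median of 0.34 and 2 above 0.5. These values are descriptions over 10 livers that share libraries, and the lists were drawn from textbook knowledge with earlier results of these data known.

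Between the groups, edgeR called 4 of the 20 tested male-biased genes, all higher after MI-883, where 0.764% of all genes were called higher, and the list's median log2 fold change was 0.42. These 4 were the arachidonate hydroxylases *Cyp4a12a* (255 ± 70.7 to 461 ± 77.0 CPM, log2 fold change 0.85, SE 0.18, edgeR adjusted P = 0.0428) and *Cyp4a12b* (116 ± 19.8 to 201 ± 33.9 CPM, log2 fold change 0.80, SE 0.14, edgeR adjusted P = 0.0141), the steroid hydroxylase *Cyp2d9* (1646 ± 107 to 2458 ± 405 CPM, log2 fold change 0.58, SE 0.11, edgeR adjusted P = 0.0264) and complement *C6*. *Cyp4a12a* and *Cyp4a12b* are themselves close copies, so their counts are uncertain one by one. DESeq2 called 7 of the 20, beside 3.50% of all tested genes. Most of these calls rested on the full set of livers: leaving out 1 liver at a time left between 1 and 3 of the 20 called. *Cyp4a12b* was called in all 10 such fits, *Cyp2d9* in 4, *C6* in 3 and *Cyp4a12a* in 1, that without control replicate 4. Fits without control replicate 2 or 5, or without MI-883 replicate 2 or 5, left 1 call, and a fit without control replicate 1 or 3 or MI-883 replicate 1 left 3. *Hsd3b5* and *Slco1a1*, whose r with the summed *Mup* genes was 0.88 and 0.92, were not called (log2 fold change -0.54 and -0.23, edgeR adjusted P = 0.636 and 0.667). Of 13 tested female-biased genes, 1 was called, *Prom1*, a membrane protein that also marks bile duct and progenitor cells, which rose from 0.65 ± 0.53 to 11.1 ± 1.77 CPM.

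Of 13 genes of the growth hormone pathway, which drives *Mup* transcription, edgeR called none. An unadjusted P under 0.05 was found for 4 of them, beside 15.6% of all tested genes. DESeq2 called 2, the receptor gene *Prlr* and *Igf1*, both lower, beside 3.50% of all tested genes. Over the 10 livers, and given as a description, the 13 genes had a median r of 0.07 with the summed *Mup* genes. Of these, 3 were above 0.5, beside a median of 0.06 and 14.5% above 0.5 over all ranked genes. Single genes differed: the 3 above 0.5 were the receptor gene *Ghr* (r = 0.82), *Igfals* (0.69) and *Igf1* (0.64). The lowest was *Igfbp3* (r = -0.58), *Stat5b* had r = -0.28, and the feedback inhibitors *Socs2* and *Cish* had r = -0.35 and r = -0.36. Among 16 liver regulators edgeR called none (2 with an unadjusted P under 0.05) and DESeq2 called 1, *Cebpa*, lower. *Zhx2*, a repressor of several liver genes of fetal and sex-biased expression, was at 18.4 ± 1.38 and 18.4 ± 2.15 CPM. Of the 10 tested other lipocalins, edgeR called *Orm3*, an acute-phase orosomucoid, which rose from 26.1 ± 8.13 to 59.4 ± 10.8 CPM (log2 fold change 1.18, SE 0.19, edgeR adjusted P = 0.00978), while *Rbp4*, the retinol carrier, was at 4374 ± 398 and 3891 ± 510 CPM.

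Start-site windows were available for 7 of the 10 genes in the RefSeq table of GRCm38, and the 250 bases before the annotated start were searched. The forkhead motif TGTTTNC, searched on both strands, occurred in 6 of these 7, all but *Mup3*, and in 17.9% of all 27025 windows. The half-site AGAACA of steroid receptors occurred in *Mup3* and *Mup21*, and in 16.2% of all windows. TATAAA, the STAT motif TTCNNNGAA, the nuclear receptor half-site AGGTCA and the HNF1 half-site GTTAAT were not found in these 7 windows, and occurred in 13.0%, 7.18%, 13.8% and 6.52% of all windows. The absence of TATAAA holds for these exact letters. The similar TATATAAG is present within the last 120 bases before the start of *Mup2*, *Mup3*, *Mup10*, *Mup17* and *Mup21*, and its share of all windows was not computed. The 7 genes are copies of a common ancestor, so shared letters are not independent, and the annotated starts differ between copies.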

How the data were processed

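Liver RNA of 10 mice was sequenced in paired-end mode from a directional library kit. Per the labels and the paper's methods, the authors trimmed reads with fastp 0.23.0, aligned them to mm10 with STAR and counted reads on genes with featureCounts. The authors deposited raw counts named by Entrez number. The annotation, the strand setting, the treatment of multiply mapping reads and the versions of STAR and featureCounts are not given in the sources used here. Symbols and positions came from RefSeq of GRCm38, which matched 16644 of 16647 genes, and transcripts from GENCODE of the same assembly.

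The members and gene lists were chosen with earlier results of these data known. The genes named are the 10 members, the list genes that were called or bear on a member, and the 10 genes with the highest r to the summed *Mup* genes.

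Livers were grouped by label, 5 in each group. Library totals of 23513665 to 36221514 counts limit low genes to a floor of 3 counts (counting error alone). Genes whose summed counts reached 60 were tested with edgeR 4.0.16 (R 4.3.3, TMM, quasi-likelihood, condition as the sole term) and Benjamini-Hochberg adjustment at 0.05. The pipeline was tested on simulated data. Correlations used log2(CPM + 0.5) centred within groups. Coding sequences of principal transcripts were aligned with MAFFT 7.526. Protein sequences were not used here. Alternatives were DESeq2 1.42.0, other scalings and count filters, leaving *Mup* genes out of the scaling, a block for the replicate number, 1 surrogate variable (sva 3.50.0), and the omission of single livers.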

Additional observations from a re-analysis of the deposited data

Results flagged for a closer look

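In a group of 5 livers, the highest or lowest was compared with its nearest neighbour by Dixon's criterion, for the level of each of the 10 genes, the percent of counts on *Mup* genes and the ratio of *Mup20* to *Mup3*. Of 24 groups tested, 1 had a liver apart, where chance gives about 1 in 20. It was *Mup10* in control replicate 4, at 115 CPM, with the next liver at 32.0 CPM and a gap of 0.869 of the whole range. The same liver was among the higher control livers for the other near-identical copies, and 85.4% of the 100-base stretches of *Mup10* are shared with other genes.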

How the results depend on the processing

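Under all 19 alternatives tried, 0 of the 10 members were called. Of 190 recomputed member log2 fold changes, 158 kept their sign and 32 turned it, for *Mup1*, *Mup2*, *Mup3*, *Mup7*, *Mup10*, *Mup11*, *Mup17* or *Mup21*. The cause was not tested. *Mup10* turned to -0.00033 with DESeq2 size factors and to -0.00078 without a filter, and *Mup2* to -0.0019 with the DESeq2 test and to -0.00021 without a filter. With a surrogate variable, *Mup3* was 0.061, *Mup11* 0.38 and *Mup21* 0.29. Leaving out each liver in turn gave -0.036 to 0.38 for *Mup1*, -0.16 to 0.22 for *Mup2*, -0.090 to 0.92 for *Mup7*, -0.23 to 0.74 for *Mup10*, -0.42 to 0.14 for *Mup11*, -0.066 to 0.44 for *Mup17* and -0.28 to 0.10 for *Mup21*. *Mup20* and *Mup12* stayed above 0 and *Mup3* below 0 in these fits. The r of *Mup20* with the other *Mup* genes turned from -0.10 to 0.27 without the 2 farthest livers. On total-count CPM, the coefficient of variation in treated livers was 20.1% for *Mup3* and 22.7% for *Mup21*. The median log2 fold change of the 10 genes was 0.36 with a surrogate variable, 0.25 with the replicate block and -0.099 to 0.33 without 1 liver.

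Calls over all tested genes numbered 136, with 463 by DESeq2, 231 with a surrogate variable and 62 to 208 without 1 liver. Over the lists they numbered 6, with 13 by DESeq2 and 3 to 8 without 1 liver. Same-numbered livers of the groups had r between -0.25 and 0.49, over 0.1 in 2 of 5 pairs, so the numbers were not taken as a pairing, and 1 of 5 control livers was most like its own number. With the replicate number as a block, 89 genes and 4 list genes were called, no member was, and *Mup21* turned to 0.0038. Of the male-biased genes the block left 2 called, and *Cyp4a12b* (edgeR adjusted P = 0.0620), *Cyp2d9* (0.0602) and *Cyp4a12a* (0.0810) were no longer called.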
